A study of Mus musculus with 4 samples.

Results

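Calca-high neurons of the mouse vagal ganglia were described from Xenium in situ counts, in which fluorescent barcodes of padlock probes are read in a tissue section and assigned to segmented cells. A cell was taken as a neuron when it held 20 or more transcripts in all and 5 or more of the neuronal genes *Snap25*, *Tubb3*, *Scg2* and *Gap43* together, and as a Calca-high neuron when it also held 3 or more transcripts of *Calca*. The members were thus chosen by their *Calca* counts, and 171 of 1393 neurons were Calca-high, among 9785 segmented cells of 470 measured genes. The 3 sections (5 μm, formaldehyde-fixed) were of ganglia from adult male C57BL/6 mice given *Alternaria alternata* extract into the nose, 50 μL at 25 μg/mL on days 0, 3, 6 and 9, with tissue taken 16 hours after the last dose. All sections came from treated mice, so the groups compared are classes of neurons within the same sections, and nothing here compares treatment with control. The labels and methods do not tie a section to a mouse, so the p-values rest on the spread between 3 sections, which may be technical. The fits estimate that spread partly from all genes tested together, so a p-value does not measure the spread of its gene alone. The paired ganglia, nodose and jugular, are not marked apart in the counts.

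*Calca* encodes calcitonin and, by alternative splicing in neurons, calcitonin gene-related peptide (CGRP), a vasodilator released from the endings of peptidergic nociceptors together with substance P. The jugular ganglion is of neural crest origin and its nociceptors use the transcription factor *Prdm12*, whereas nodose neurons are of placodal origin. CGRP, substance P and PACAP fibers reach the airways, where they are known for neurogenic inflammation. The working name of these cells, peptidergic jugular neurons, was therefore checked against *Prdm12* before the other genes were read.

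The members were spread evenly. Section 1 held 50 Calca-high cells among 421 neurons (11.9%, exact 95% interval 8.94% to 15.4%), section 2 held 56 among 433 (12.9%, 9.92% to 16.5%) and section 3 held 65 among 539 (12.1%, 9.43% to 15.1%), a mean of 12.3% ± 0.565 (SD, n = 3). The 3 intervals overlapped. The members held a median of 92 transcripts per cell and the other 1222 neurons a median of 87. Totals per section, without the 5 genes of the rule, were 4022, 5177 and 6490 transcripts for the members and 32016, 34624 and 49637 for the other neurons, so a gene with 3 transcripts in the members of a section stood at 462 to 746 CPM (counts scaled to the total of the group in that section). Intervals and limits of this kind cover counting error only. *Calca* itself, which chose the members, ranged from 3 to 41 transcripts per member with a median of 5, and made up 5.84% of all their transcripts. Each section was summed over its members and over its other neurons, levels are given in CPM of the transcripts other than the 5 rule genes, and no cell barcode was found in more than 1 section (0 shared).

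Marker genes matched the name in part. Of the 171 members, 72 held at least 1 *Prdm12* transcript (18, 26 and 28 in sections 1 to 3) and 99 held none (32, 30 and 37). Among the other neurons, 58 held *Prdm12* and 1164 did not. The members with *Prdm12* had a median of 93 transcripts per cell and those without a median of 88. A fixed threshold of 3 *Calca* transcripts is reached more easily in a cell with more transcripts, and the share of neurons at 3 or more was 7.19% ± 1.11 (SD, n = 3) after each cell of 50 or more transcripts was thinned to 50. Because 99 members could not be placed in the jugular ganglion by *Prdm12*, the cells are called Calca-high neurons below.

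The peptide genes are the ones that the results turn on, and their promoters are shown for the core letters TGACG of the cAMP response element, a motif of activity-dependent peptide genes. The letters were searched on both strands in the RefSeq promoter windows of GRCm38.p6, from 250 bases before to 50 bases after each transcript start, and 20.8% of 32851 such windows held them. Of the peptide genes, only *Calca* and those called higher below, *Tac1* and *Adcyap1*, were looked up, and *Vip*, *Nmu*, *Npy* and *Nts* were not. All 3 genes looked up held the letters, *Calca* at position -65, *Tac1* at -197 (1 of 2 matches) and *Adcyap1* at -91 from the RefSeq start of the window. Counted from another RefSeq start of *Adcyap1*, the same match lay at -242. These starts can differ from the gene starts given below, and the printed *Tac1* stretch ends just before its gene start. In the stretches below, written 5′ to 3′ on the strand of the gene, the capitals mark the match (CGTCA where it lies on the other strand).
Calca (chr7:114636370-114636470, minus strand): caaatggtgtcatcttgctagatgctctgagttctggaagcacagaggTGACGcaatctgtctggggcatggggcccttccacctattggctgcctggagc
Tac1 (chr6:7554816-7554878, plus strand): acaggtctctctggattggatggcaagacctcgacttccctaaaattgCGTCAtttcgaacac
Adcyap1 (chr17:93198878-93198978, plus strand): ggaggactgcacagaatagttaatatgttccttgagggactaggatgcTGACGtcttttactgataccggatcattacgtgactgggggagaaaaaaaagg
The match is a description of the sequence and was not read as a site. The genes themselves lie at chr7:114631478-114636357 (*Calca*), chr6:7554879-7565834 (*Tac1*) and chr17:93199017-93206537 (*Adcyap1*) in GRCm38.

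Compared with the other neurons of the same sections, Calca-high neurons held more transcripts of the substance P and PACAP genes, of *Prdm12* and of several nociceptor channels, and fewer of *Nnat*, *Etv1* and other genes. Of 153 genes tested, 27 were higher (17.6%) and 14 lower (9.15%) at an adjusted p under 0.05. With members taken instead as neurons in which *Calca* was 5% or more of the transcripts, 22 were higher and 23 lower of 152, and 29 of the 41 genes were called again, *Nos1*, *Runx1* and *Scn10a* not among them (adjusted p = 0.329, 0.143 and 0.168). For 40 of the 41 the values of the 3 sections did not overlap between the groups, *Ncf4* being the exception. The 41 were picked by a test on these same values, and the share of all 153 genes that were apart in this way was not counted. The count for the 41 is therefore a description and no further support. When each section was left out in turn, 13 of the higher genes (*Tac1*, *Adcyap1*, *Prdm12*, *Aqp1*, *Asic3*, *Chrna7*, *Dbpht2*, *Tmem100*, *Nos1*, *Trpv1*, *Cplx2*, *Stmn1* and *Scn10a*) and 3 of the lower (*Nnat*, *Fxyd6* and *Etv1*) passed in every fit. The other 25 lost the call without at least 1 section, and the number called fell to 17 without section 1, 37 without section 2 and 28 without section 3. Across the 153 genes the log2 fold change had a median of -0.04, which moved to -0.15 with scaling by library size alone.

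**Figure D1:**
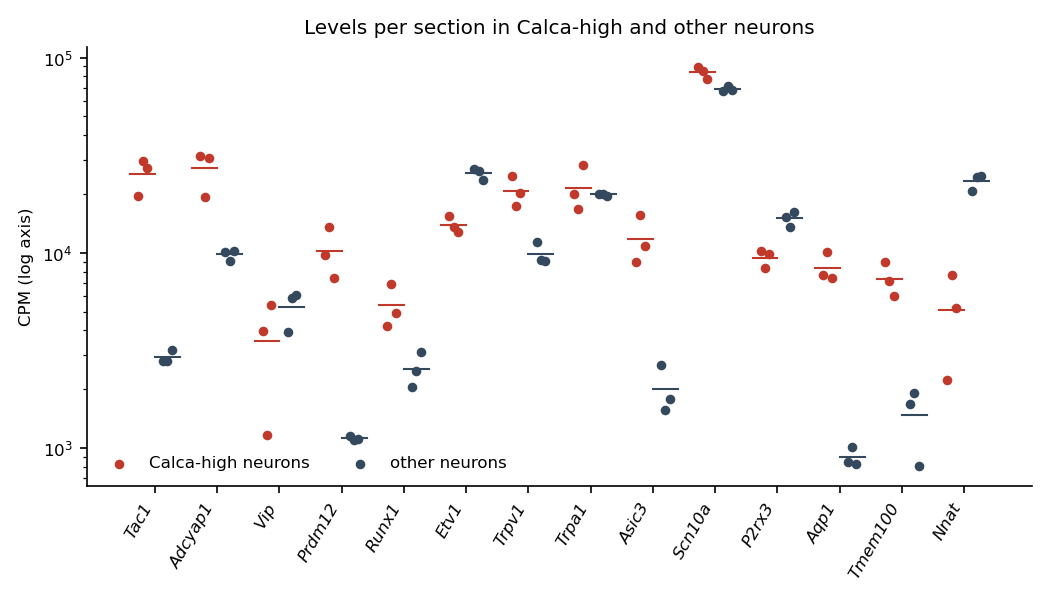
Levels of 14 genes in CPM without the rule genes (vertical log axis) in Calca-high neurons (red) and the other neurons (dark blue), 1 point per section and a line at the mean of 3 sections. The red and blue points of *Tac1*, *Prdm12*, *Asic3* and *Aqp1* lie far apart with red above, those of *Nnat* and *Etv1* lie apart with blue above, and those of *Trpa1* and *Vip* overlap.

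*Tac1*, which encodes substance P and neurokinin A, stood at 19642, 29361 and 27273 CPM in the members of sections 1 to 3 and at 2780, 2773 and 3183 CPM in the other neurons. Every member value was above every other value. The log2 fold change was 3.23 ± 0.169 (SE, edgeR quasi-likelihood test, adjusted p = 1.08e-05). *Tac1* was detected in 53.2% of members and 11.5% of the other neurons, and in 45.4% and 8.0% after each cell of 50 or more transcripts was thinned to 50 (141 members and 968 other neurons). In cells of 20 or more transcripts outside the neuron gate, which have a median of 26 transcripts, the share was 8.5%. *Adcyap1*, which encodes the peptide PACAP, stood at 31328, 19316 and 30508 CPM in the members and at 10057, 9098 and 10234 CPM in the others, again without overlap, and was higher by 1.56 ± 0.136 (SE, adjusted p = 0.000133). It was found in 63.2% of members and 39.4% of the other neurons. *Vip*, the third peptide gene tested, overlapped between the groups (3510 ± 2155 against 5278 ± 1168 CPM, SD, n = 3) and did not pass (log2 fold change -0.51, adjusted p = 0.373). *Nmu*, *Npy* and *Nts* were below the filter on low counts and were not tested.

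Among the members, 58 of 171 held both *Tac1* and *Adcyap1*, 33 held *Tac1* alone, 50 held *Adcyap1* alone and 30 held neither. The cells with *Adcyap1* alone had a median of 183 transcripts, against 74 for those with *Tac1* alone. In the members with *Prdm12*, 30 of 72 held both peptide genes, 23 *Tac1* alone and 7 *Adcyap1* alone. In those without, 28 of 99 held both, 10 *Tac1* alone and 43 *Adcyap1* alone. Cells with *Tac1* alone made up 31.9% of the former and 10.1% of the latter, and cells with *Adcyap1* alone 9.72% and 43.4%. The cells with *Adcyap1* alone and no *Prdm12* had a median of 186 transcripts. *Trpv1* and *Trpa1* were found together in 22 of 72 members with *Prdm12* and 43 of 99 without. These counts depend on the transcripts per cell and were not tested.

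Of the transcription factors, 2 of 10 tested were higher and 3 lower, beside 17.6% and 9.15% of all 153 genes tested. *Prdm12* stood at 9697, 13521 and 7396 CPM in the members and at 1156, 1098 and 1108 CPM in the other neurons (log2 fold change 3.25 ± 0.252, SE, adjusted p = 7.31e-05). The groups were apart in all sections, although *Prdm12* was detected in only 42.1% of members (4.7% of other neurons). *Runx1*, a factor of nonpeptidergic nociceptors, was higher by 1.17 ± 0.255 (SE, 5370 ± 1416 against 2549 ± 524 CPM, SD, n = 3, adjusted p = 0.0136) and lost the call without section 1 (adjusted p = 0.101). The ETS factor *Etv1* was lower (log2 fold change -0.77 ± 0.107, SE, 13908 ± 1355 against 25558 ± 1780 CPM, adjusted p = 0.0014), as was the homeobox factor *Cux2* (-0.76 ± 0.173, SE, adjusted p = 0.0163).

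The TRP channels divided. Of 8 tested, 3 were higher, *Trpv1* and *Trpm8* among them, and *Trpc4* was lower. Of all 153 genes tested, 17.6% were higher and 9.15% lower. *Trpv1*, the capsaicin and heat receptor, stood at 24863, 17385 and 20185 CPM in the members and at 11338, 9127 and 9086 CPM in the other neurons, a log2 fold change of 1.19 ± 0.125 (SE, adjusted p = 0.000297) with no overlap. *Trpa1*, the receptor of irritants, stood at 19891, 16805 and 28043 CPM against 20115, 20102 and 19643 CPM. These values overlapped, and the difference was 0.22 ± 0.140 (SE, adjusted p = 0.303). The menthol receptor *Trpm8* was higher by 2.48 ± 0.581 (SE, adjusted p = 0.0168), but rested on 29 transcripts in the members and 42 in the others. Most of those 42 lay in the 58 other neurons that held *Prdm12*. Its contrast differed by -5.84 between neurons with and without *Prdm12* (edgeR interaction term, adjusted p = 0.0209), as given below. *Trpc4* was lower (5368 ± 1902 against 9571 ± 807 CPM, -0.75, adjusted p = 0.0427).

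Of 8 other channels and ionotropic receptors tested, 4 were higher and 3 lower, beside 17.6% and 9.15% of all genes tested. *Asic3*, an acid-sensing channel, stood at 8951, 15646 and 10786 CPM in the members and at 2655, 1560 and 1773 CPM in the other neurons. The member values were above all others, by a log2 fold change of 2.70 ± 0.298 (SE, adjusted p = 0.000352). *Scn10a*, which encodes the nociceptor sodium channel Nav1.8 and was abundant in both groups, was higher by 0.40 ± 0.0613 (SE, 84413 ± 5888 against 68963 ± 2159 CPM, adjusted p = 0.00222). The nicotinic subunit genes went apart, *Chrna7* higher by 2.73 ± 0.534 (SE, adjusted p = 0.00828, 23 transcripts in the members) and *Chrna3* lower (-0.66 ± 0.168, SE, adjusted p = 0.0245, 184 transcripts). The ATP-gated channel *P2rx3* was lower (9454 ± 1008 against 15004 ± 1350 CPM, log2 fold change -0.56, adjusted p = 0.0244), as was the AMPA receptor subunit *Gria2* (-0.67, adjusted p = 0.0166). The vesicular glutamate transporter *Slc17a6* was lower in every section (24596 ± 1313 against 28682 ± 1191 CPM) but did not pass (-0.11, adjusted p = 0.44). Among the Mas-related receptors of itch and mechanical nociceptors, *Mrgprd* (2.38, adjusted p = 0.00564) and *Mrgpra3* (1.31, adjusted p = 0.0468) were higher of 4 tested, from 30 and 20 transcripts in the members. *Mrgpra1* and *Mrgpra2b* did not pass (-0.29 and 0.11).

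**Figure D2:**
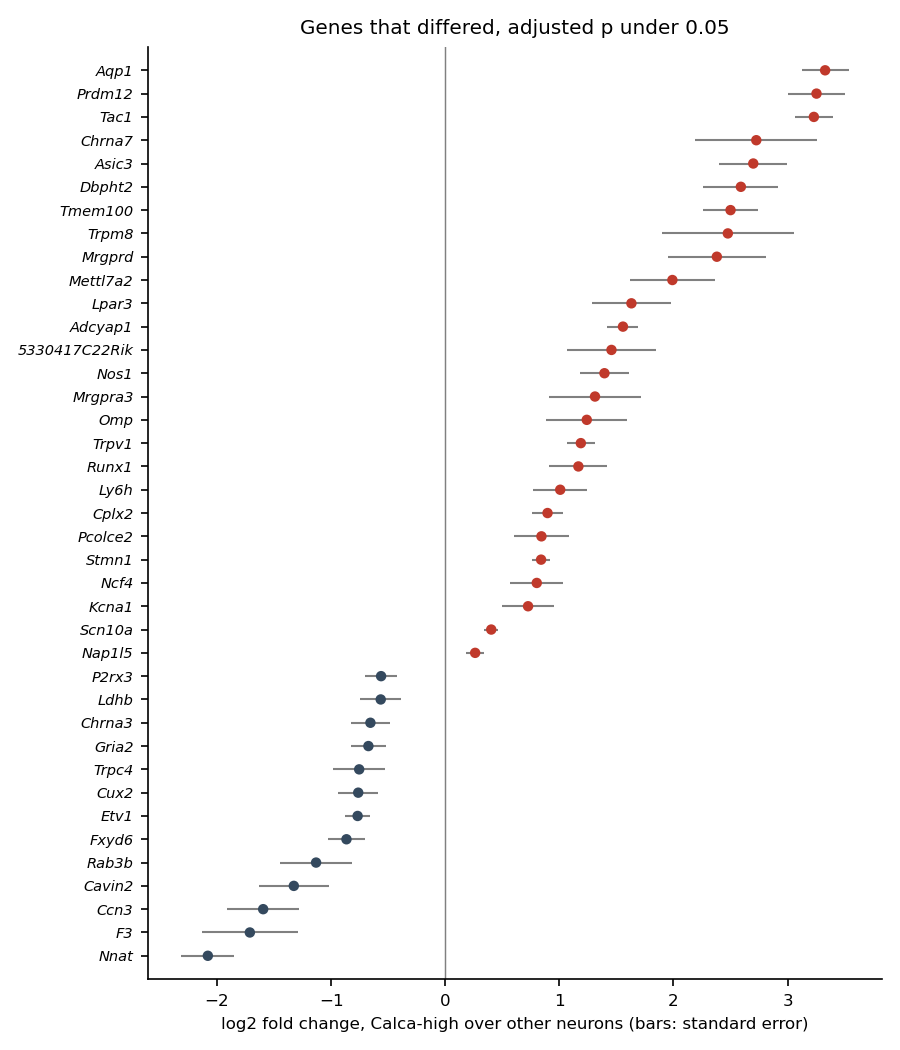
Log2 fold change of Calca-high over other neurons (horizontal axis) for 39 of the 41 genes that passed, with bars for the standard error of the edgeR fit over 3 sections. The values run from -2.08 for *Nnat* to 3.33 for *Aqp1*.

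Of genes outside these families, *Aqp1*, a water channel, changed most, at 7708, 10044 and 7396 CPM in the members and 843, 1011 and 826 CPM in the other neurons (log2 fold change 3.33 ± 0.206, SE, adjusted p = 1.97e-05). *Tmem100*, a membrane protein that acts on the TRPA1 and TRPV1 complex, stood at 8951, 7147 and 6009 CPM against 1687, 1906 and 806 CPM and was higher by 2.50 ± 0.239 (SE, adjusted p = 0.000186). Both genes were apart in every section. *Dbpht2* (2.59) and *Mettl7a2* (1.99) were also among the 10 highest. *Nos1*, the neuronal nitric oxide synthase, was higher by 1.40 (5596 ± 337 against 2310 ± 278 CPM, adjusted p = 0.00222), and *Lpar3*, a receptor of lysophosphatidic acid, by 1.63 (adjusted p = 0.0126). *Stmn1*, a regulator of microtubules (46168 ± 5397 against 27791 ± 1455 CPM, 0.84, adjusted p = 0.000186), and *Cplx2*, a complexin of transmitter release (19186 ± 1285 against 11211 ± 1042 CPM, 0.90, adjusted p = 0.00222), were higher as well, while the granule genes *Scg3*, *Scg5* and *Ptprn2* did not pass (log2 fold changes -0.08, -0.44 and -0.27).

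The lower genes were led by *Nnat*, a proteolipid of neurons, at 2238, 7726 and 5239 CPM in the members and 20771, 24318 and 24820 CPM in the other neurons (log2 fold change -2.08 ± 0.231, SE, adjusted p = 0.000352). It stood below every other value, with the lowest member value in section 1. *F3*, the tissue factor gene (-1.71, 5 transcripts in the members), *Ccn3*, a matricellular protein (-1.59, 12 transcripts), *Cavin2*, a caveolar coat protein (-1.33), *Rab3b*, a vesicle GTPase (-1.13), and *Fxyd6*, a regulator of the sodium pump (-0.87), followed. Of the 13 neuron-wide genes tested, 2 were higher (*Ly6h* and *Nap1l5*), 2 lower (*Nnat* and *Fxyd6*) and 9 did not pass. The shares over all genes tested were 17.6% higher and 9.15% lower. The voltage-gated potassium channel gene *Kcna1* (0.73), the NADPH oxidase subunit gene *Ncf4* (0.80), the collagen-processing gene *Pcolce2* (0.84) and the olfactory marker protein gene *Omp* (1.24, 22 transcripts in the members) were higher too, together with *5330417C22Rik* (1.46), and *Ldhb*, a lactate dehydrogenase subunit (-0.57), was lower. *Nap1l5*, the smallest of the higher calls (0.26, adjusted p = 0.0371), changed sign with no filter on low counts.

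In this comparison, in which 17.6% of all genes tested were higher and 9.15% lower, no gene of the immune lists was called. None of 4 tested interleukin receptor and cytokine genes passed, nor did any of 2 chemokine and receptor genes, 2 genes of the TNF superfamily and 3 of antigen presentation. The other genes of these lists were below the count filter and were not tested. Among neurons without *Prdm12*, compared below, *Cxcr4* of the chemokine list was lower (-3.18). *Il13ra1*, a subunit of the interleukin-13 receptor, stood at 976 ± 437 CPM in the members and 1575 ± 362 CPM in the others (log2 fold change -0.55, adjusted p = 0.281), and *Il1r1*, the interleukin-1 receptor, at 533 ± 264 against 853 ± 300 CPM (-0.42, adjusted p = 0.575). The CGRP receptor genes *Calcrl* and *Ramp1* rested on 8 and 14 transcripts in the members, did not pass (adjusted p = 0.943 and 0.217) and overlapped between the groups.

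Segmented cells can hold transcripts of neighbouring cells, so markers of other cell types were summed in both groups. Schwann and satellite glia genes (6 listed) summed to 14294 to 18896 CPM in the members and 18553 to 19058 CPM in the other neurons, and none of the 4 tested passed. Endothelial genes summed to 1492 to 3670 CPM against 3668 to 4810 CPM, fibroblast genes to 10238 to 15871 CPM against 16278 to 17618 CPM, mural genes to 616 to 3284 CPM against 1242 to 2015 CPM, and macrophage genes to 1492 to 2465 CPM against 2156 to 2542 CPM. Fat cell genes summed to 308 to 1352 CPM against 607 to 987 CPM. Lymphocyte genes summed to 995, 2511 and 3544 CPM in the members of sections 1 to 3. In the other neurons they summed to 1062, 1184 and 1189 CPM. The sum was thus higher in the members of sections 2 and 3, although *Cd3d* and *Cd3e* were at 0 in all members. Among the other neurons it was 3361 to 4414 CPM with *Prdm12* and 973 to 1088 CPM without. No gene of these lists that reached the count filter passed in this comparison. Over all genes tested, 17.6% were higher and 9.15% lower. Listed genes below the filter were not tested, so no difference in them could be called. Without the cells that held any transcript of the Schwann cell gene *Prx*, 44 genes were called, of which 38 were among the 41.

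The number of *Calca* transcripts per cell was then used to describe the levels on both sides of the threshold. In the 53 neurons with 2 transcripts, just outside it, *Tac1* stood at 6170 ± 2058 CPM, *Adcyap1* at 13379 ± 2404 CPM and *Prdm12* at 4530 ± 2827 CPM (SD, n = 3). In the 39 neurons with 3, just inside it, the values were 8084 ± 3646, 16998 ± 9288 and 5708 ± 2709 CPM. These neighbours in the order overlapped for all 3 genes. Neurons with 0 *Calca* transcripts (1040 cells) were lower in *Tac1* and *Prdm12*, at 2248 ± 358 and 555 ± 138 CPM, and those with 6 to 11 (58 cells) stood at 46236 ± 14132 and 16688 ± 2004 CPM. The 25 cells with 12 or more were larger, with a median of 178 transcripts, and held less of both, at 24797 ± 9586 CPM of *Tac1* and 9607 ± 6762 CPM of *Prdm12*. The mean of *Adcyap1* was highest in them, at 42062 ± 10565 CPM against 30300 ± 15073 CPM with 6 to 11. The sections of these last 2 groups overlapped for *Adcyap1* and *Prdm12*, and were apart for *Tac1* by a margin far below their SD (lowest 33153 CPM with 6 to 11, highest 33149 CPM with 12 or more). *Prdm12* was detected in 2.5% of neurons with no *Calca*, 17.1% of those with 1, 18.9% of those with 2, 28.4% of those with 3 to 5, 56.9% of those with 6 to 11 and 56.0% of those with 12 or more. *Nnat* stood at 24185 ± 3179 CPM without *Calca*, 9079 ± 8115 CPM with 2 transcripts and 4635 ± 3355 CPM with 6 to 11 (SD, n = 3).

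**Figure D3:**
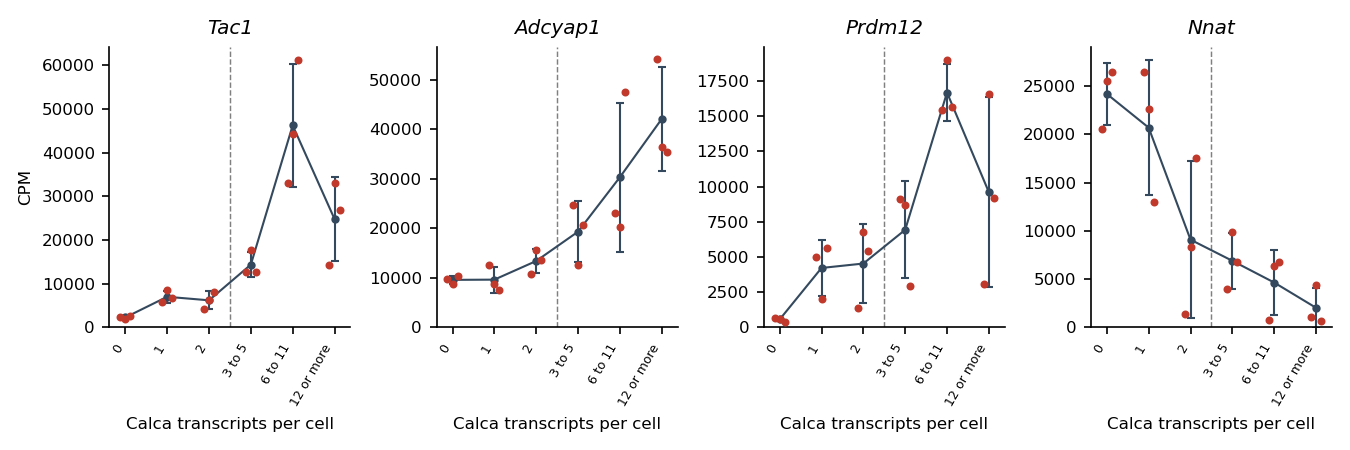
Levels of 4 genes (vertical axis, CPM) in neurons ordered by *Calca* transcripts per cell (horizontal axis), with red points for the 3 sections, dark points and bars for mean and SD, and a dashed line at the threshold of 3. The means of *Tac1* and *Prdm12* peak at 6 to 11 *Calca* transcripts, that of *Adcyap1* is highest at 12 or more, and that of *Nnat* is 24185 without *Calca* and 4635 at 6 to 11.

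Among neurons with *Prdm12*, the question was which genes go with *Calca* when the jugular factor is present in both groups. The 72 Calca-high cells with *Prdm12* were set against the 58 *Prdm12* neurons with 0 to 2 *Calca* transcripts. Of 45 genes tested, 5 were higher (11.1%) and 0 lower (0.0%) with edgeR. At an unadjusted p under 0.05, 2 were lower with edgeR and 1 with DESeq2, which also called 0 lower. *Adcyap1* differed most. It stood at 15625, 19000 and 37344 CPM in the Calca-high cells and at 840, 631 and 1627 CPM in the others, where only 5 transcripts were counted, a log2 fold change of 4.60 ± 0.620 (SE, adjusted p = 2.82e-09). *Tac1* stood at 55208, 45754 and 45228 CPM against 15966, 5044 and 20607 CPM (2.04 ± 0.401, SE, adjusted p = 4.68e-05). Both peptide genes were apart in every section. *Trpv1* (2.24, adjusted p = 0.000138), *Tmem100* (3.02, adjusted p = 0.00492) and *Serpina3n*, a protease inhibitor (2.06, adjusted p = 0.0242), were also higher.

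*Scn10a* (95492 ± 9751 against 102036 ± 15302 CPM, log2 fold change 0.01, adjusted p = 0.995), *Asic3* (22517 ± 3624 against 14852 ± 15005 CPM, 1.14, adjusted p = 0.126) and *Runx1* (4066 ± 2808 against 10168 ± 6810 CPM, -1.06, adjusted p = 0.253) did not pass among the *Prdm12* neurons. *Asic3* varied widely in the *Prdm12* cells with little *Calca*, from 31933 CPM in section 1 to 3796 CPM in section 3. The sums of that group were small, 1190 to 1844 transcripts per section. The number of calls was 5 without section 1, 1 (*Adcyap1*, adjusted p = 0.0372) without section 2 and 0 without section 3 (12 at an unadjusted p under 0.05).

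The members were next compared among themselves, the 72 with *Prdm12* against the 99 in which no *Prdm12* transcript was found. A count of 0 does not show that a cell lacks the gene, since the cells with *Prdm12* held 157 transcripts of it in all. Of 63 genes tested, 3 were higher with *Prdm12* (4.76%) and 9 lower (14.3%). *Asic3* stood at 18750, 25979 and 22822 CPM with *Prdm12* and at 5879, 5389 and 3676 CPM without (log2 fold change 2.33 ± 0.245, SE, adjusted p = 0.00561). *Tac1* stood at 55208, 45754 and 45228 CPM against 8491, 13087 and 16667 CPM (2.04 ± 0.327, SE, adjusted p = 0.0142). Neither gene overlapped. *Scn10a* was higher by 0.44 (adjusted p = 0.0364) with some overlap between sections.

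Lower with *Prdm12* were *Cux2* (-3.54 ± 0.335, SE, 882 ± 141 against 10165 ± 3654 CPM, adjusted p = 0.00561), *Ccdc80* (-2.92), *Chrna3* (-2.50), *Etv1* (-2.37, 3761 ± 1524 against 20000 ± 1682 CPM), *Fxyd6* (-1.99), the RNA-binding protein gene *Celf3* (-1.48), *Trpa1* (-1.33), *Gria2* (-1.18) and the annexin gene *Anxa2* (-0.45). *Ccdc80*, a matrix protein on the fibroblast list, was the only member of that list called, beside 14.3% of all 63 genes tested that were lower. Listed genes below the count filter, such as *Dpt* and *Mfap4*, were not tested. *Trpa1* stood at 6250, 6979 and 19087 CPM with *Prdm12* and at 24167, 26559 and 33333 CPM without, so that all sections were lower (adjusted p = 0.0443).

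*Adcyap1* was not called between these members (15625, 19000 and 37344 against 36251, 19630 and 26471 CPM, log2 fold change -0.03 ± 0.307, SE, adjusted p = 0.931), and its order differed between sections. *Trpv1* was also not called. Without section 1 the number of genes called was 7, without section 2 it was 0 (17 at an unadjusted p under 0.05), and without section 3 it was 17.

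**Figure D4:**
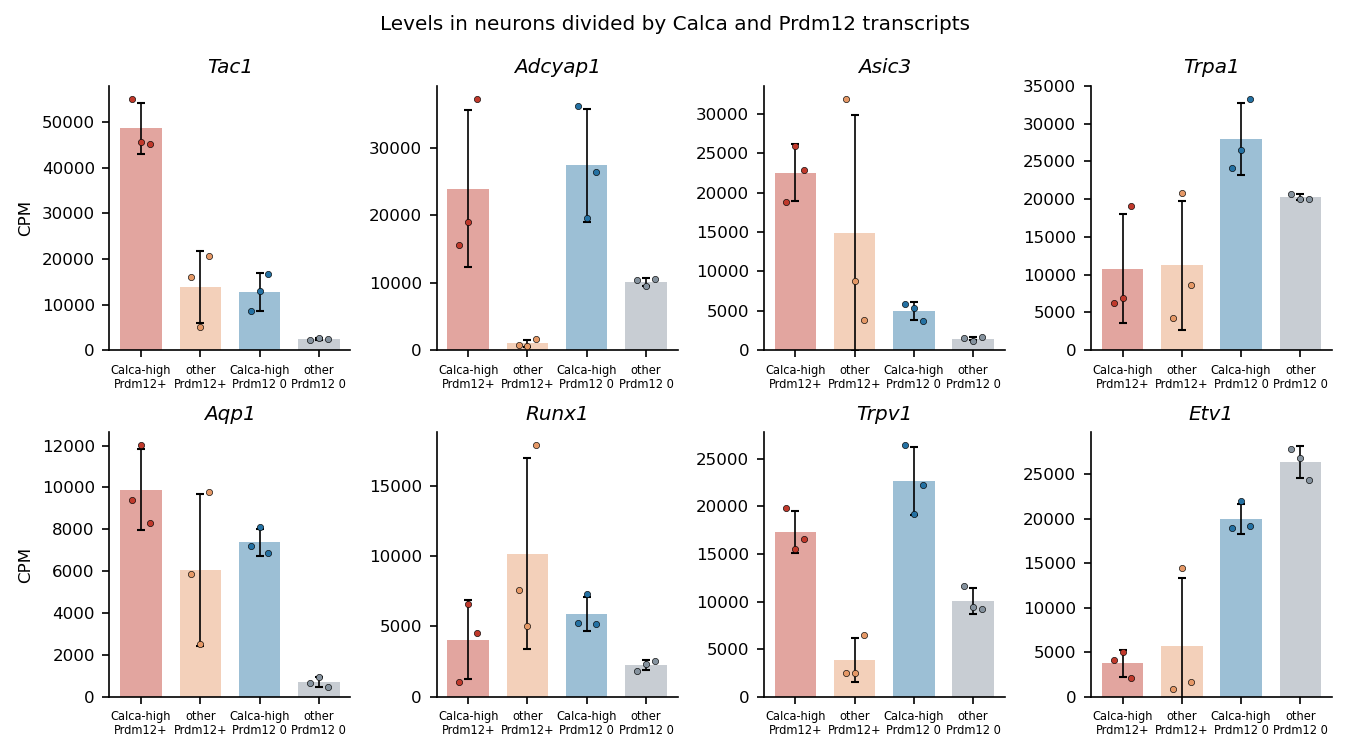
Levels (vertical axes, CPM) of 8 genes in neurons divided by *Calca* (3 or more, or 0 to 2) and *Prdm12* (1 or more, or 0), with points for the 3 sections, bars for the mean and lines for the SD. *Adcyap1* is high in both Calca-high groups and at 1033 ± 525 in the *Prdm12* neurons with little *Calca*, while *Etv1* and *Trpa1* have their higher means without *Prdm12*.

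Since most members lacked a *Prdm12* transcript, neurons without *Prdm12* were also compared alone, a choice made after these counts were seen. The 99 Calca-high cells were set against the 1164 neurons with 0 to 2 *Calca* transcripts, and of 139 genes 15 were higher (10.8%) and 4 lower (2.88%). *Aqp1* stood at 7185, 8083 and 6863 CPM in the Calca-high cells and at 649, 938 and 481 CPM in the others (log2 fold change 3.57 ± 0.284, SE, adjusted p = 7.52e-18). *Tac1* (12748 ± 4098 against 2482 ± 198 CPM, 2.47, adjusted p = 2.03e-13), *Adcyap1* (27451 ± 8353 against 10161 ± 574 CPM, 1.53, adjusted p = 2.06e-10), *Trpv1* (1.29), *Asic3* (1.81), *Nos1* (1.82), *Tmem100* (2.22) and *Runx1* (1.47) were higher too. *Trpa1* was higher here, at 24167, 26559 and 33333 CPM against 20729, 20068 and 20066 CPM (0.58 ± 0.162, SE, adjusted p = 0.00607). *Cxcr4* (-3.18), *Ccn3* (-2.19), *Nnat* (-1.54) and *Trpc4* (-0.83) were lower. The number called was 5 without section 1, 0 without section 2 (26 at an unadjusted p under 0.05, smallest adjusted p 0.0806) and 8 without section 3. The very small adjusted p-values above therefore do not show that a gene was steady between sections.

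The difference of the *Calca* contrast between neurons with and without *Prdm12* was tested itself, by an interaction term over 4 sums per section. Of 79 genes, 4 passed (5.06%). For *Adcyap1* the contrast was larger with *Prdm12*, by 3.20 ± 0.592 on the log2 scale (SE, adjusted p = 0.00308). *Adcyap1* was at 1033 ± 525 CPM in the *Prdm12* neurons with little *Calca* and at 10161 ± 574 CPM in the corresponding neurons without *Prdm12*, and the 2 Calca-high groups were at 23990 ± 11688 and 27451 ± 8353 CPM. For *Aqp1* (-2.68), *Runx1* (-2.48) and *Trpm8* (-5.84) the difference was negative. The contrast of *Aqp1* was smaller with *Prdm12*. That of *Runx1* changed sign, being -1.06 with *Prdm12* (not called, edgeR adjusted p = 0.253) and higher in Calca-high cells without it. *Trpm8* was below the count filter in both separate comparisons. *Adcyap1* passed with any section left out, but only narrowly without section 3 (adjusted p = 0.0490). *Aqp1* and *Runx1* did not pass without section 1 (adjusted p = 0.0988 for both) or without section 3 (adjusted p = 0.356 for both). Without section 3 their differences were -1.46 and -1.63. Without section 1 *Trpm8* was not tested.

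*Calca* transcripts were also found outside the neuron gate. Of the 1092 cells with 20 or more transcripts that did not pass it, 46 held 3 or more of *Calca* (4.21%, exact 95% interval 3.10% to 5.58%). Of these 46, 36 held *Tac1*, 21 *Scn10a* and 9 *Prdm12*, and 8 held *Prx*. Their median was 32 transcripts per cell, of which 3 were of the 4 gate genes. They were not counted as members.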

How the data were processed

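The deposited counts come from the authors' decoding of Xenium probes and their assignment to segmented cells. They are whole numbers of transcripts per gene and cell, with no normalization, and were used as deposited. The submitters' processing notes name Seurat; filters applied before deposition are not given in the sources used here. Each column was assigned to its section by its name (0 left over). Results on some genes are not reported here. The lung sample and the deposited cell metadata were not used here.

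The members and gene lists were chosen with earlier results of these data known. Counts were summed per section and class, leaving the 5 genes of the rule (and *Prdm12* where it divided the cells) out of totals and tests. Sums were compared with edgeR 4.0.16 in R 4.3.3 (quasi-likelihood test, TMM, filterByExpr, section as a block, Benjamini-Hochberg at 0.05 over all genes tested). The fits were also run on simulated sums with a fixed spread, which can differ from the spread of these data, and no result here rests on that run. The 2 classes of a section share that section, which is the pairing. Named genes were the 10 higher and 10 lower with the largest log2 fold change that went the same way in all 3 sections (6 and 6 in the other comparisons), the marker genes, and examples from each list; others were chosen after their values were seen. Alternatives were DESeq2 1.42.0, limma 3.58.1 on log2(CPM + 1), and other filters, thresholds and scalings. Thinning drew each cell down to 50 transcripts (seed 1). No doublet caller was run. Positions are from GENCODE on GRCm38 and promoter sequences from RefSeq (GRCm38.p6). Figures and descriptions were made in Python 3.11.15 (numpy 2.4.6, pandas 2.3.3, scipy 1.17.1, matplotlib 3.10.9).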

Additional observations from a re-analysis of the deposited data

Results flagged for a closer look

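For 4 genes the difference between Calca-high and other neurons was itself different in neurons with and without *Prdm12* (edgeR interaction term, 79 genes tested, a test chosen after the data were seen). *Adcyap1* differed by 3.20 (adjusted p = 0.00308) and passed with any section left out, narrowly without section 3 (adjusted p = 0.0490). *Aqp1* differed by -2.68 (adjusted p = 0.0185): in *Prdm12* neurons it was at 9898 ± 1915 CPM with high and 6055 ± 3623 CPM with low *Calca* (SD, n = 3), and without *Prdm12* at 7377 ± 632 against 689 ± 231 CPM. *Runx1* differed by -2.48 (adjusted p = 0.0209), at 4066 ± 2808 against 10168 ± 6810 CPM with *Prdm12* and 5895 ± 1229 against 2247 ± 355 CPM without. *Trpm8* differed by -5.84 (adjusted p = 0.0209) and rested on few transcripts, 4, 9 and 5 in the Calca-high cells with *Prdm12*, 15, 4 and 19 in the other *Prdm12* neurons, 5, 6 and 0 in the Calca-high cells without it and 1, 2 and 1 in the rest. Without section 1, *Adcyap1* alone passed (1 gene), *Aqp1* and *Runx1* both being at an adjusted p of 0.0988 and *Trpm8* below the count filter. Without section 3, *Aqp1* and *Runx1* were at -1.46 and -1.63, both at an adjusted p of 0.356.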

How the results depend on the processing

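Depth limited the smaller groups, whose sums held 960 to 2579 transcripts per section for Calca-high cells with *Prdm12*. For Calca-high against other neurons, 41 genes were called, and 17 to 37 with a section left out, 48 with no replicate block, 48 by library size alone, 38 by DESeq2 (36 of them among the 41) and 54 with no filter (18 higher and 36 lower). Among neurons without *Prdm12* only, 19 were called, 20 with no replicate block and 0 to 8 with a section left out. For *Prdm12* neurons, 5 genes were called, 5 with no replicate block, 3 by DESeq2, after thinning or without cells holding *Prx*, 2 in cells of 50 or more transcripts, 1 with *Prdm12* of 2 or more and 0 to 5 with a section left out. For members with against without *Prdm12*, 12 were called, 21 with no replicate block, 19 by library size alone, 22 with no filter, 7 after thinning and 0 to 17 with a section left out. For the interaction, 4 were called and 1 to 4 with a section left out. The share of Calca-high neurons, 12.3%, was 16.0% at a threshold of 2 *Calca* transcripts, 5.94% at 6, 7.19% after thinning to 50, and 11.6% with 10 or more neuron-gene transcripts. *Nap1l5* reversed with no filter (-0.0864), and *Adcyap1* between the members with and without *Prdm12* reversed without section 1 (-0.44 to 0.38 with a section left out) and in cells of 50 or more transcripts (0.0430). The causes were not tested.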
